A study of Homo sapiens with 18 samples.

Results

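DNA replication genes were followed in 2 human triple-negative breast cancer cell lines exposed to OTX015 (MK-8628), a small molecule that blocks the bromodomains of the BET proteins, readers of acetylated histones. The set holds 47 genes, chosen by annotated symbol as working parts of the replication machinery, and they were represented by 71 of the 47231 probes on each Illumina bead array. A gene was taken by its brightest probe, and all 47 had one among the 23630 probes that passed a signal floor and were tested, of which those with 1 symbol stand for 12920 genes. The lines were MDA-MB-231, at 75 nM OTX015, and MDA-MB-468, at 650 nM, each compared with the vehicle DMSO and with no treatment after 4, 8 and 24 h. Each of these 18 conditions was hybridized on 1 array, so a treatment has its 3 times in place of repeats (n = 3), and the p-values cover the variation among these arrays alone. Each line is a single established culture, and because the lines received different concentrations, line and concentration cannot be told apart. Levels are log2 signals after background correction and quantile normalization, and a gene was called higher or lower only with a limma p of 0.05 or less after Benjamini-Hochberg adjustment over all probes tested, together with a log2 change of 0.5 or more in size.

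Replication is prepared in G1, when the origin recognition complex, CDC6 and CDT1 load the ring of MCM2 to MCM7 onto DNA. At the start of S phase CDC45 and the GINS complex join that ring to form the active helicase, with MCM10 assisting, and polymerases alpha, delta and epsilon copy the strands behind it. The clamp PCNA and its loader, replication factor C, hold the polymerases on DNA, replication protein A covers single strands, FEN1 and LIG1 finish the lagging strand, ribonucleotide reductase and thymidylate synthase supply building blocks, and chromatin is rebuilt behind the fork. Many of these genes are transcribed together at the G1 to S boundary through E2F sites in their promoters.

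The promoters of the 4 genes that fell with OTX015 in MDA-MB-468 are printed here, since they let a reader see what sequence these genes do and do not share. Each is the 250 bases before the RefSeq start on GRCh38.p14, 5′ to 3′ on the gene's strand (the plus strand for all 4), at chr3:127598161-127598410 for MCM2, chr10:13161308-13161557 for MCM10, chr13:33817899-33818148 for RFC3 and chr19:4909251-4909500 for UHRF1. Capitals mark an E2F-type site (TTTGGCGC, TTTGCCGC, TTTCGCGC or TTTCCCGC), a CCAAT box (CCAAT), a CHR element (TTTGAA) or an E-box (CACGTG), each searched on both strands.
MCM2: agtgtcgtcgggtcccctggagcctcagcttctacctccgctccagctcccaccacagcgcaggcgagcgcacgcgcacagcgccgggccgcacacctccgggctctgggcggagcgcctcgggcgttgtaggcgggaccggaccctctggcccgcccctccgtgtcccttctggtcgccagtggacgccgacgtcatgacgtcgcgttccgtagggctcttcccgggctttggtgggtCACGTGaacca
MCM10: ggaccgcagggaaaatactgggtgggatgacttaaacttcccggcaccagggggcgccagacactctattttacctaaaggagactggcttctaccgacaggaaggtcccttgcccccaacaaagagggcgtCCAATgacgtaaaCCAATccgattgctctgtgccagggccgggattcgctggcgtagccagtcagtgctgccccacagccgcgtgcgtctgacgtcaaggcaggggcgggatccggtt
RFC3: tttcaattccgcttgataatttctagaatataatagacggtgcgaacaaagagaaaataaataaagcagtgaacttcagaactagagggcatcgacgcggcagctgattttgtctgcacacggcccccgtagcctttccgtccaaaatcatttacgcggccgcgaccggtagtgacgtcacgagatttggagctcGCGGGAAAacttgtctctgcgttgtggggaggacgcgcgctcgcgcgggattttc
UHRF1: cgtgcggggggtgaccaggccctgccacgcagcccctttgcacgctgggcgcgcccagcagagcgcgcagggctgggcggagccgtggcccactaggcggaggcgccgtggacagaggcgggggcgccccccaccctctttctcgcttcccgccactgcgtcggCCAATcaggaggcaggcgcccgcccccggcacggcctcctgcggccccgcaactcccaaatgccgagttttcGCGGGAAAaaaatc
RFC3 and UHRF1 held an E2F-type site, beginning 55 and 14 bases before the start. UHRF1 also held a CCAAT box 86 bases before the start, MCM10 held CCAAT boxes at 118 and 105 bases, and MCM2 held an E-box at 11 bases. Of the 47 genes, 41 had a promoter in the table, and 14 of these (34.1%) held an E2F-type site, against 2.79% of 27305 promoters of the same length. A CCAAT box was present in 24 of 41 (58.5%) against 33.0%, an E-box in 5 of 41 (12.2%) against 6.49%, and a CHR element in 1 of 41 (2.44%) against 13.6%. MCM4, MCM5, GINS4, POLD3, RPA2 and RPA3 had no entry. A match of letters is a description of the sequence and not of a factor bound there.

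The arrays were checked before the genes were compared. All 3 epithelial markers (CDH1, EPCAM and ESRP1) were above the floor on all 9 arrays of MDA-MB-468, while in MDA-MB-231 EPCAM was on all 9 and CDH1 and ESRP1 were on none. Of the mesenchymal markers VIM was above the floor on all arrays of both lines, lower in MDA-MB-468 (8.55 to 9.83 against 13.41 to 13.51), and ZEB1 on all 9 arrays of MDA-MB-231 and none of the other line. CDH2 was above it on 7 arrays of MDA-MB-231 and none of MDA-MB-468. Of the receptors, ERBB2 was above the floor on all 9 arrays of each line, ESR1 on 3 arrays of MDA-MB-468 only and PGR on no array. Of the markers of leukocytes, endothelium and fibroblasts, PTPRC, CD3E, VWF, COL1A2 and COL3A1 were above the floor on no array. CD14 was above it on all 18 arrays, PECAM1 and DCN on all 9 of MDA-MB-231, and PECAM1, CDH5 and COL1A1 on 2, 4 and 6 arrays of MDA-MB-468, and their part in the results was not tested. The mean signal of an array lay between 316 and 409 for MDA-MB-231, and between 174 and 503 for MDA-MB-468, whose dimmest array was OTX015 at 8 h. The untreated and DMSO arrays of 4 h in MDA-MB-468 stood apart: 456 probes were lower on both by more than 1 log2 unit than on all later arrays without drug, against 0 in MDA-MB-231. They correlated with each other at 0.998 over all probes tested and with the later arrays at 0.957 to 0.970, and the OTX015 array of 4 h was closer to the later undrugged arrays (0.973 to 0.984) than to those of its own time (0.967 to 0.969). Every response at 4 h in MDA-MB-468 is read against these 2 arrays, and their part in it was not tested. None of the 47 genes was called between DMSO and untreated cells in either line. With limma 0 had an unadjusted p under 0.05, against 2.74% of all probes in the first line and 0.415% in the second. Both shares are below what chance gives at that threshold, so this test cannot show that vehicle had no effect. The log2 changes ran from -0.26 (MCM2) to 0.16 (RRM2) in MDA-MB-468. For MDA-MB-231 the range was -0.12 (PRIM2) to 0.16 (CDT1).

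OTX015 against DMSO gave 4 falls and no rise among the 47 genes in MDA-MB-468, and no call in MDA-MB-231. The 4 were MCM2 (-0.90), UHRF1 (-0.65), RFC3 (-0.54) and MCM10 (-0.53), from 3 different steps. Over all probes tested in MDA-MB-468, 2.38% fell and 2.00% rose, so 4 of 47 falls and 0 rises stood beside a background of that size. The 4 calls depended on the fit. None of the 47 genes was called with scale normalization, without the time term, with the untreated arrays left out, or without any one DMSO array of the line, the 8 h arrays or the 24 h arrays, and 10 were called (3 higher) with untreated and DMSO arrays pooled. The median log2 change of the 47 genes was -0.19 in MDA-MB-468, with 32 of 47 below 0, against -0.012 over all probes. In MDA-MB-231 0.182% of all probes fell and 0.245% rose, the members' median was -0.06 with 35 of 47 below 0, and at an unadjusted p under 0.05 limma gave 6 lower members and 1 higher, beside 15.5% of all probes at that threshold. In RNA from whole cultures, fewer cells in S phase and less of a transcript per cell cannot be told apart. The level on the OTX015 arrays was below that of DMSO at all 3 times for 23 of 47 genes in MDA-MB-468, against 22.3% of all probes, and for 14 of 47 in MDA-MB-231, against 19.5%. All 3 OTX015 arrays lay below all 6 undrugged arrays for 9 genes in MDA-MB-468 (MCM2, MCM3, MCM10, POLD3, RFC3, RFC4, RPA2, FEN1 and RRM1), against 7.01% of all probes, and for 4 in MDA-MB-231 (ORC5, POLE2, RFC4 and RRM1), against 4.04%. They lay above for GINS4 and RFC5 in MDA-MB-468, against 5.68%, and for none in MDA-MB-231, against 3.57%. Scale in place of quantile normalization moved the median of all probes to -0.11 in MDA-MB-468 and to 0.047 in the other line, and that of the 47 genes to -0.43 and 0.031, so the sign of the members' median in MDA-MB-231 turned.

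**Figure D1:**
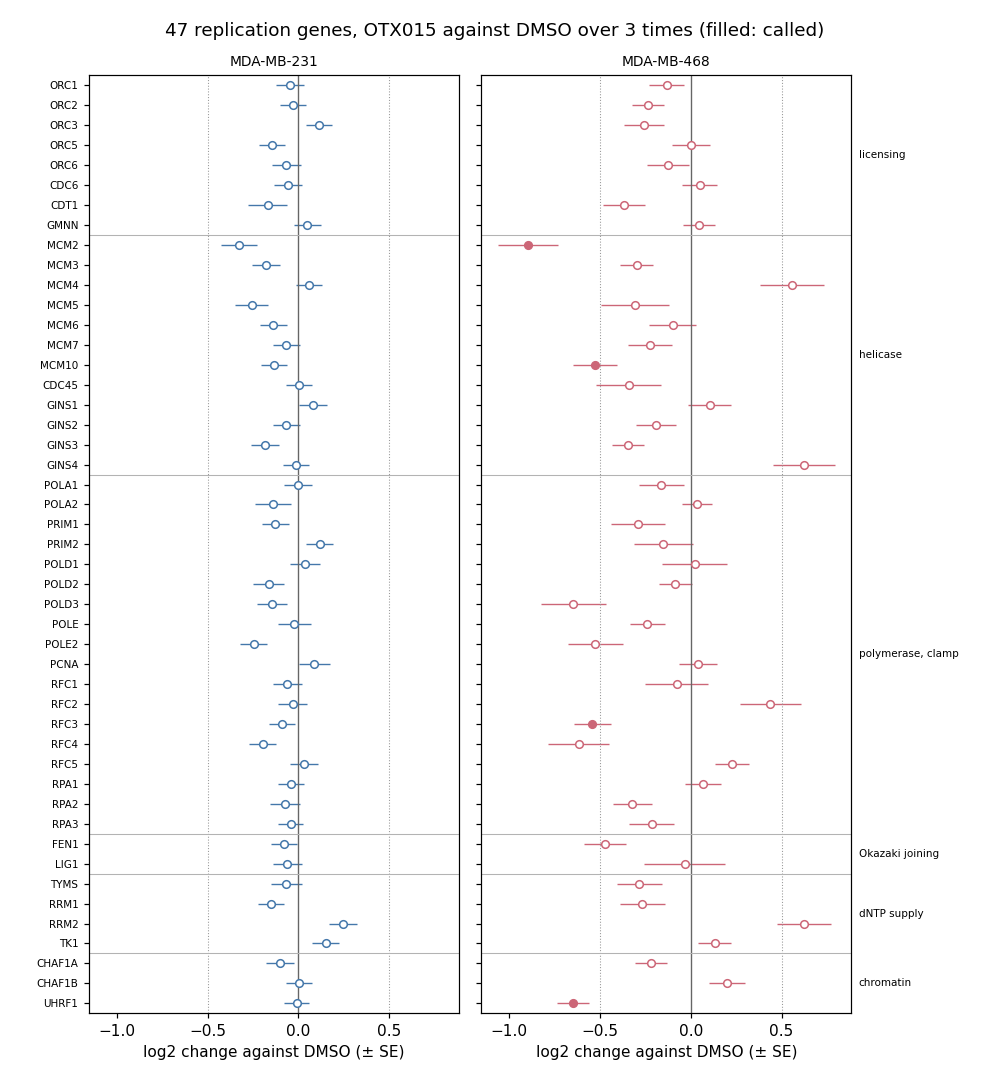
Log2 change of the 47 replication genes with OTX015 against DMSO over 3 times (x axis, ± standard error from limma on 9 arrays of a line) by gene and step (y axis), in MDA-MB-231 (left) and MDA-MB-468 (right). Filled points passed both thresholds, which are MCM2, MCM10, RFC3 and UHRF1 in MDA-MB-468 and none in MDA-MB-231; dotted lines mark a change of 0.5.

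None of the 8 licensing genes was called against DMSO over the 3 times. Their log2 changes ran from -0.17 (CDT1) to 0.11 (ORC3) in MDA-MB-231. In MDA-MB-468 they spanned -0.37 (CDT1) and 0.05 (CDC6), and the fall of CDT1 at 24 h is given with the other single times. CDT1, the loading factor that is destroyed once S phase begins, had log2 signals of 8.78, 8.29 and 8.12 at 4, 8 and 24 h under OTX015 in MDA-MB-468, against 8.85, 8.70 and 8.73 with DMSO and 8.89, 8.67 and 8.64 untreated. The levels at 8 and 24 h were below every undrugged array, and the one at 4 h was not. The change over the 3 times was -0.37 (standard error 0.116, adjusted p = 0.118). ORC3, a subunit of the origin recognition complex, was at 9.37, 8.74 and 8.95 with OTX015 and 9.36, 9.12 and 9.33 with DMSO in MDA-MB-468, a change of -0.25 (adjusted p = 0.238). CDC6, the ATPase that works beside CDT1, was dim and above the floor on 5 of the 9 arrays of MDA-MB-468.

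The helicase held the largest fall of the set, and its subunits did not move as one. MCM2, a subunit of the ring, had log2 signals of 8.60, 7.84 and 8.56 at 4, 8 and 24 h under OTX015 in MDA-MB-468, against 9.42, 9.09 and 9.17 with DMSO and 9.44, 9.52 and 9.49 untreated. All 3 OTX015 levels lay below all 6 others, the one at 8 h farthest. The fall of -0.90 (standard error 0.164, adjusted p = 0.0251) left a signal 0.537 times that with DMSO. Without the OTX015 array of 8 h it was -0.67 with no call (adjusted p = 0.0544). In MDA-MB-231 MCM2 was at 9.64, 9.04 and 9.14 with OTX015, 9.65, 9.64 and 9.51 with DMSO and 9.61, 9.61 and 9.60 untreated, level at 4 h and lower at 8 and 24 h, for a change of -0.33 over the 3 times (adjusted p = 0.102). MCM10, a scaffold needed to start the helicase, was at 8.66, 8.21 and 8.15 with OTX015, 8.91, 8.86 and 8.83 with DMSO and 8.86, 8.92 and 8.88 untreated in MDA-MB-468. The groups did not overlap, and the gap was wider at 8 and 24 h than at 4 h. The fall was -0.53 (standard error 0.122, adjusted p = 0.0488). A second MCM10 probe gave -0.44, without a call, and followed another course in time. Against the undrugged arrays of the same time it had -0.98 at 4 h (called lower), 0.07 at 8 h and -0.34 at 24 h. The wider gap at 8 and 24 h thus held for the brightest probe only. The call of MCM10 was at the edge of both thresholds, and it was lost with the deposited log2 table (-0.45), without background correction (-0.48), with a variance trend (adjusted p = 0.0722) and without any one array of the line other than that of OTX015 at 4 h (adjusted p from 0.0612 to 0.230).

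The other ring subunits in MDA-MB-468 had changes against DMSO of -0.30 (MCM3), 0.56 (MCM4), -0.31 (MCM5), -0.10 (MCM6) and -0.22 (MCM7), none of them called. MCM4 was at 10.15, 10.66 and 10.45 with OTX015, 9.13, 10.44 and 10.01 with DMSO and 9.03, 10.42 and 10.16 untreated. Its undrugged levels at 4 h lay far below all its other levels, and its gap to OTX015 was widest at that time. GINS4, a GINS subunit, was at 7.56, 7.54 and 7.27 with OTX015, 6.48, 7.02 and 7.0 with DMSO and 6.50, 7.23 and 7.05 untreated, with no overlap and a change of 0.62 (standard error 0.170, adjusted p = 0.0791). In the same complex GINS3 had -0.35 and GINS2 -0.19, and GINS1 was above the floor on 4 of 9 arrays in each line. In MDA-MB-231 the helicase genes ran from -0.33 (MCM2) to 0.08 (GINS1).

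**Figure D2:**
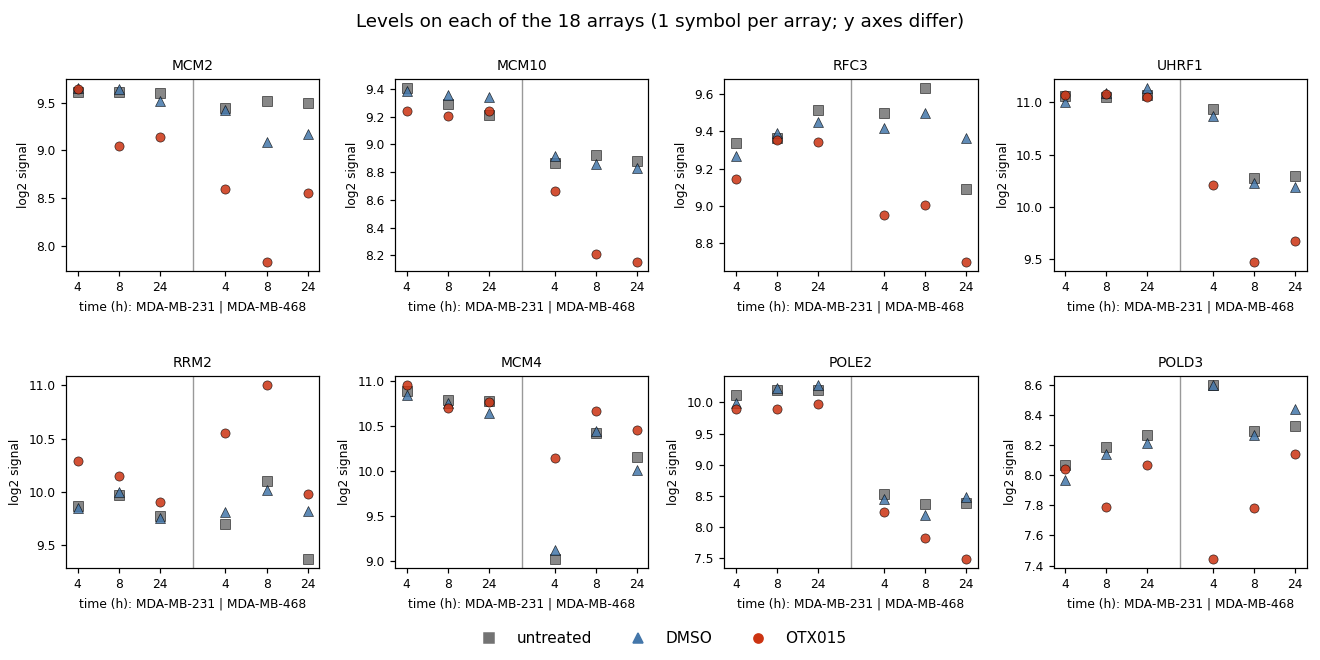
Log2 signal (y axis, scaled per gene) of MCM2, MCM10, RFC3, UHRF1, RRM2, MCM4, POLE2 and POLD3 on each of the 18 arrays, by time in hours and line (x axis, MDA-MB-231 left and MDA-MB-468 right of the grey line). Each symbol is 1 array; in MDA-MB-468 the OTX015 arrays of MCM2, MCM10, RFC3 and POLD3 lie below all 6 undrugged arrays, and the undrugged arrays of MCM4 at 4 h (9.03 and 9.13) lie far below the later ones.

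Of the 18 genes for polymerases, clamp, clamp loader and single-strand cover, RFC3 fell in MDA-MB-468. RFC3, a small subunit of the clamp loader, was at 8.95, 9.01 and 8.70 with OTX015, 9.42, 9.50 and 9.36 with DMSO and 9.50, 9.63 and 9.09 untreated. The groups did not overlap, although the untreated array of 24 h (9.09) came close to the highest OTX015 level (9.01). The fall was -0.54 (standard error 0.103, adjusted p = 0.0280), with -0.59 (no call) and 0.16 at the other 2 RFC3 probes, and the mean of the 3 was not called (-0.32, adjusted p = 0.0991). The call was also lost with the deposited log2 table (-0.49), without the 4 h arrays (adjusted p = 0.0745) and without any one array of the line other than OTX015 at 4 h and untreated at 24 h (adjusted p from 0.0544 to 0.146). RFC4, another small subunit, was at 9.77, 9.89 and 9.87 with OTX015 and 10.37, 10.43 and 10.58 with DMSO, without overlap, and its change of -0.62 (standard error 0.169, adjusted p = 0.0791) was not called. Its untreated levels ran from 10.71 at 4 h to 10.02 at 24 h, and without the untreated array of 24 h its adjusted p was 0.0251. The remaining loader subunits had -0.08 (RFC1), 0.44 (RFC2) and 0.23 (RFC5).

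POLD3, an accessory subunit of polymerase delta, was at 7.44, 7.78 and 8.14 with OTX015, 8.60, 8.27 and 8.44 with DMSO and 8.60, 8.29 and 8.33 untreated in MDA-MB-468. No OTX015 level reached the undrugged ones, and the gap was widest at 4 h. The change of -0.65 (standard error 0.178) had an adjusted p of 0.0815. POLE2, the second subunit of polymerase epsilon, had -0.52 (adjusted p = 0.0881) in MDA-MB-468 and -0.25 (adjusted p = 0.0957) in MDA-MB-231, the lowest adjusted p of the 47 brightest probes in that line. A second, dimmer PRIM1 probe gave -0.29 there with a limma adjusted p of 0.0420, under the minimum size for a call. PCNA, the clamp itself, had 0.04 in MDA-MB-468, and replication protein A had 0.07 (RPA1), -0.32 (RPA2) and -0.21 (RPA3). The whole group ran from -0.25 (POLE2) to 0.12 (PRIM2) in MDA-MB-231.

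Neither lagging-strand gene was called over the 3 times. FEN1, the nuclease that trims the RNA-bearing flap of an Okazaki fragment, was at 10.79, 10.47 and 10.50 with OTX015, 11.04, 11.23 and 10.90 with DMSO and 11.03, 11.16 and 10.94 untreated in MDA-MB-468. These groups did not overlap, yet the change of -0.47 (standard error 0.115, adjusted p = 0.0580) stayed short of both thresholds, and a second, dimmer FEN1 probe gave -0.03. LIG1, the ligase that seals the fragments, was at 8.69, 9.27 and 8.37 with OTX015 and 8.84, 8.79 and 8.79 with DMSO, above DMSO at 8 h and below it at 24 h, for -0.03 over the 3 times.

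Of the genes of nucleotide supply, RRM2 and TK1 were at a higher level with OTX015 than with DMSO at each time in both lines, without a call over the 3 times together. RRM2, the small subunit of ribonucleotide reductase that is made in S phase, was at 10.55, 11.01 and 9.98 with OTX015, 9.82, 10.02 and 9.82 with DMSO and 9.70, 10.10 and 9.37 untreated in MDA-MB-468. It was above its own time's undrugged arrays at all 3 times, most at 8 h, although the OTX015 level of 24 h lay within the undrugged range. The change was 0.63 (standard error 0.148, adjusted p = 0.0522). In MDA-MB-231 RRM2 was at 10.29, 10.15 and 9.91 with OTX015 and 9.85, 10.00 and 9.76 with DMSO, again higher at each time, for 0.24 (adjusted p = 0.117). Its partner RRM1, the large subunit, had -0.27 and -0.15 in the same comparisons, with the OTX015 arrays below all undrugged arrays in both lines. TYMS, thymidylate synthase, was at 11.67, 11.57 and 11.38 with OTX015 and 11.98, 11.60 and 11.89 with DMSO in MDA-MB-468, -0.28 (adjusted p = 0.240). TK1, thymidine kinase of the salvage route, had 0.13 in MDA-MB-468, where OTX015 and DMSO overlapped, and 0.15 in MDA-MB-231 (adjusted p = 0.341), where they did not.

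Among the genes of chromatin assembly UHRF1 fell in MDA-MB-468 and stayed near its DMSO level in MDA-MB-231. UHRF1, which brings the maintenance DNA methyltransferase to newly copied DNA, was at 10.21, 9.47 and 9.67 with OTX015, 10.87, 10.23 and 10.19 with DMSO and 10.94, 10.28 and 10.30 untreated in MDA-MB-468. The OTX015 level lay below both others at every time, but all levels dropped after 4 h, so that the OTX015 level of 4 h lay just above the DMSO level of 24 h. The fall was -0.65 (standard error 0.0874, adjusted p = 0.00971). In MDA-MB-231 the 9 levels stayed between 11.00 and 11.14, and the change was -0.01. A second, dimmer UHRF1 probe gave -0.07 in MDA-MB-468 and went the other way over time without drug (0.82 from 4 to 24 h, against -0.66), and the mean of both probes was not called (-0.36, adjusted p = 0.170). Leaving out the 8 h arrays (adjusted p = 0.200), the 24 h arrays (0.0664) or any one DMSO array of the line (0.0597 to 0.0957) also ended the call. CHAF1A and CHAF1B, the 2 large subunits of the histone chaperone CAF-1, had -0.22 and 0.20. CHAF1A was at 6.94, 6.34 and 6.70 with OTX015, 7.19, 6.60 and 6.85 with DMSO and 7.32, 6.70 and 6.85 untreated in MDA-MB-468. It was lowest with OTX015 at each time, the groups overlapped across times, and the OTX015 level of 8 h was under the floor.

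The response differed between the lines for UHRF1 alone among the 47 genes. The response in MDA-MB-468 minus that in MDA-MB-231 was -0.64 (standard error 0.100, adjusted p = 0.00655), against 1.10% of all probes lower and 0.800% higher by the same test. This call too was lost with the mean of both probes (-0.34, adjusted p = 0.310) and without the arrays of any 1 time (adjusted p from 0.0634 to 0.238). MCM2 had a difference of -0.57 (adjusted p = 0.215), RFC3 -0.45 (adjusted p = 0.0720) and GINS4 0.64 (adjusted p = 0.111). The fall of MCM2, MCM10 and RFC3 in MDA-MB-468 was therefore not shown to differ from the change in MDA-MB-231.

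The response at each time set 1 OTX015 array against the pair of undrugged arrays (untreated and DMSO) collected with it, with the lone array assumed to vary like the undrugged pairs. At 4 h in the MDA-MB-468 line MCM4 (1.07), GINS4 (1.07), RFC2 (0.88) and RRM2 (0.79) were higher, and POLD3 (-1.15), MCM2 (-0.83), UHRF1 (-0.70), PRIM2 (-0.59), RFC3 (-0.51) and RFC1 (-0.50) were lower, at background rates of 7.19% higher and 6.23% lower. Probes of one gene disagreed here. Over the 67 tested probes of the members, 8 were higher and 11 lower at 4 h. Further probes of MCM7 (2.09) and POLD2 (1.52) were higher, and of MCM3 (-1.12), MCM10 (-0.98) and RPA1 (-0.60 and -0.56) lower. The brightest probes of these genes were not called. Second probes of RFC2 (0.07) and RFC1 (-0.31) were not called. At 8 h RRM2 (0.94) was higher, and MCM2 (-1.47), UHRF1 (-0.78), FEN1 (-0.73), MCM10 (-0.68), RFC3 (-0.56) and RPA2 (-0.55) were lower, at 6.01% and 7.64%. Of the 67 probes 2 were higher and 7 lower at 8 h. A second ORC6 probe was higher (0.57), although the brightest was not called, and a second FEN1 probe gave 0.10 without a call. At 24 h 20 members were lower and 5 higher at an unadjusted limma p under 0.05, beside 13.8% and 14.7% of all probes. No member was called higher (2 had an adjusted p of at most 0.05 but a change under 0.5) at a background of 5.39%. Lower calls numbered 10 at a background of 5.43%. These were POLE2 (-0.94), CDC45 (-0.87), MCM2 (-0.77), MCM10 (-0.70), LIG1 (-0.64), UHRF1 (-0.57), CDT1 (-0.57), RRM1 (-0.56), RFC3 (-0.53) and POLA1 (-0.51), with a member of every step among them. By their brightest probes MCM2, RFC3 and UHRF1 were lower at each of the 3 times. The second RFC3 probe was called lower at 4 h (-0.67) and 24 h (-0.75) but not at 8 h (-0.20). The third RFC3 probe gave 0.33, -0.01 and 0.14 at 4, 8 and 24 h, without a call. A second POLA1 probe gave 0.10 at 24 h, also without a call. In a fit without the 4 h arrays, an alternative added after the data were seen, the count at 24 h was 5, namely CDT1, MCM10, CDC45, POLE2 and UHRF1. The 24 h contrast takes the arrays of 4 and 8 h into its estimate of the spread only. Its count was also 5 without the untreated or without the DMSO array of 4 h, and 6 without either undrugged array of 8 h. Without the untreated array of 24 h it was 10 again, with RFC4 and TYMS in place of LIG1 and RRM1.

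In MDA-MB-231 no member was called at 4 h (background 0.322% higher and 0.237% lower) or at 24 h (0.601% and 0.592%). At an unadjusted limma p under 0.05, 4 members were lower and 1 higher at 4 h, beside 5.73% and 5.94% of all probes. By the same threshold 9 were lower and 1 higher at 24 h, beside 7.04% and 7.07%. At 8 h MCM2 (-0.58, adjusted p = 0.00938) and MCM5 (-0.52, adjusted p = 0.0212) were lower and none was higher, against 0.533% and 0.702% of probes. MCM5, a ring subunit, was at 8.79 with OTX015 at 8 h and at 9.30 and 9.33 without drug. MCM2 had an adjusted p of 0.0494 at 24 h with a change of -0.41, under the minimum size. Without either undrugged array of 8 h neither gene was called.

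**Figure D3:**
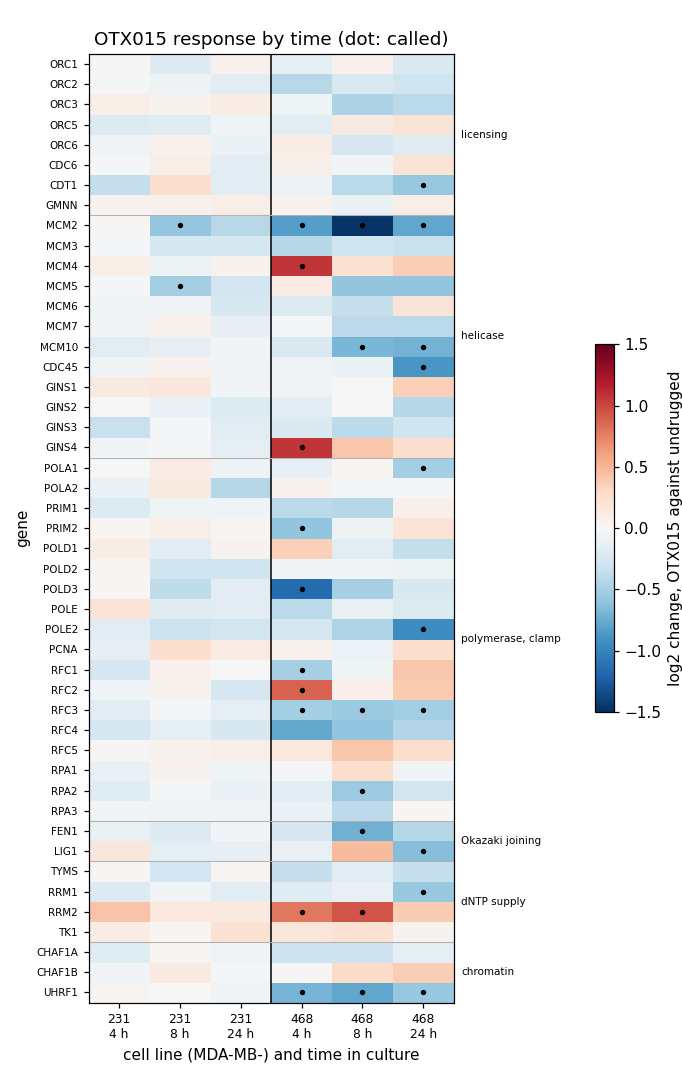
Log2 change with OTX015 against the undrugged arrays of the same time (colour, blue lower and red higher) for the 47 genes by step (y axis) at 4, 8 and 24 h in each line (x axis, MDA-MB-231 left); black dots mark calls. MDA-MB-231 carries 2 dots, MCM2 and MCM5 at 8 h, and MDA-MB-468 carries 10, 7 and 10 at 4, 8 and 24 h.

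The response at 24 h was tested against that at 4 h. In MDA-MB-468 the response at 24 h minus that at 4 h was lower for GINS4 (-0.83), CDC45 (-0.82), MCM4 (-0.70) and POLE2 (-0.69) and higher for POLD3 (0.91), RFC1 (0.90) and PRIM2 (0.78), against 5.54% and 4.43% of all probes. GINS4 and MCM4 were not late falls, since their responses at 24 h were 0.24 and 0.37 after larger rises at 4 h. Of the 10 genes called lower at 24 h only CDC45 and POLE2 were called here, so the others were not shown to fall late. CDC45, which couples GINS to the ring, was at 10.34, 10.01 and 9.30 with OTX015, 10.42, 10.15 and 10.11 with DMSO and 10.37, 10.07 and 10.24 untreated. It lay just below the undrugged levels at 4 and 8 h and far below them at 24 h, where its response was -0.87 (adjusted p = 0.00215). POLE2 was at 8.23, 7.82 and 7.49 with OTX015, 8.45, 8.19 and 8.49 with DMSO and 8.53, 8.37 and 8.38 untreated, with the widest gap at 24 h. Among the 67 tested probes of the members, 9 were lower and 6 higher in this contrast. Dimmer probes of MCM7 (-2.05), POLD2 (-1.40) and ORC6 (-0.64) were lower, and of MCM3 (0.91) and RPA1 (0.75 and 0.88) higher. For these genes the brightest probe was not called. A second RFC1 probe gave 0.50, without a call. When the 8 h response took the place of the 4 h response, none of the 47 genes was called. CDC45 kept a change of -0.77 (adjusted p = 0.0540) and POLE2 -0.49 (adjusted p = 0.150), while MCM4 turned to 0.14. In MDA-MB-231 none was called for 24 h minus 4 h, where 0.00423% of all probes were called lower and 0.0127% higher. At an unadjusted p under 0.05 there were 4 lower and 0 higher members, beside 7.67% of all probes.

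Undrugged MDA-MB-468 cells also differed between 24 and 4 h. MCM4 (1.0), POLD1 (0.77), the catalytic subunit of polymerase delta, MCM5 (0.55) and GINS4 (0.54) were higher at 24 h, and PRIM2 (-0.77), UHRF1 (-0.66) and RFC1 (-0.52) were lower, against 7.83% and 4.99% of all probes. These overlap the genes whose early response stood out: the OTX015 level of MCM4 at 4 h, 10.15, lay within the range of the later undrugged arrays, 10.01 to 10.44, and that of PRIM2, the primase subunit that binds polymerase alpha, was 6.66 against 6.42 to 6.95. Probes of one gene disagreed at that time. For MCM7 a second probe rose by 2.18 from 4 to 24 h without drug while the brightest changed by 0.06, and for POLD2, the second subunit of polymerase delta, the values were 1.30 and 0.15. Between 24 and 8 h no member was called. In MDA-MB-231 no member was called between 24 and 4 h, where 0.614% of all probes were called lower and 0.305% higher. At an unadjusted p under 0.05 there were 7 lower and 9 higher members, beside 21.8% of all probes.

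Without drug, the lines differed in 20 of the 47 genes. Of these, 16 were lower in MDA-MB-468 than in MDA-MB-231 and 4 were higher, against 16.6% and 17.0% of all probes. POLE2 had log2 signals of 8.19 to 8.53 (median 8.42) on the 6 undrugged arrays of MDA-MB-468 and 9.98 to 10.28 (median 10.20) on those of MDA-MB-231, a difference of -1.77 (standard error 0.0709, adjusted p = 1.23e-09). RFC5, a small clamp loader subunit, had 8.79 to 9.13 (median 8.95) against 10.37 to 10.58 (median 10.51), -1.55 (adjusted p = 4.97e-10). RPA1, the large subunit of replication protein A, had 10.08 to 10.20 (median 10.16) against 11.16 to 11.34 (median 11.21), -1.09 (adjusted p = 5.20e-09). None of these 3 genes overlapped between the lines. The other 2 RPA1 probes were also lower (-0.52 and -0.55). The others that were lower were GINS4 (-0.96), MCM4 (-0.91), RFC2 (-0.87), RPA2 (-0.79), TK1 (-0.78), CDC6 (-0.68), RRM1 (-0.65), PRIM1 (-0.61), FEN1 (-0.60), UHRF1 (-0.60), RFC4 (-0.59), GINS2 (-0.57) and GINS3 (-0.54). A second RFC2 probe gave -0.49, without a call. Dimmer probes of MCM7 (-1.29) and ORC6 (-0.56) were lower, although the brightest probes of these genes were not called. Over the 67 tested probes of the members, 25 were lower and 4 higher.

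The 4 that were higher in MDA-MB-468 were POLA2 (1.21), the regulatory subunit of polymerase alpha, PCNA (0.87), CHAF1B (0.87) and POLE (0.59), the catalytic subunit of polymerase epsilon. POLA2 had 9.26 to 9.63 (median 9.40) in MDA-MB-468 and 8.07 to 8.36 (median 8.21) in MDA-MB-231. PCNA had 11.45 to 11.89 (median 11.70) and 10.64 to 11.00 (median 10.83). For both, the lowest array of one line was above the highest of the other. A second PCNA probe gave only 0.31, without a call (adjusted p = 0.0535 with limma). The subunits of polymerase epsilon thus differed between the lines in opposite directions, POLE higher and POLE2 lower in MDA-MB-468. Without the 4 h arrays MCM4 was no longer called and the other 19 were.

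**Figure D4:**
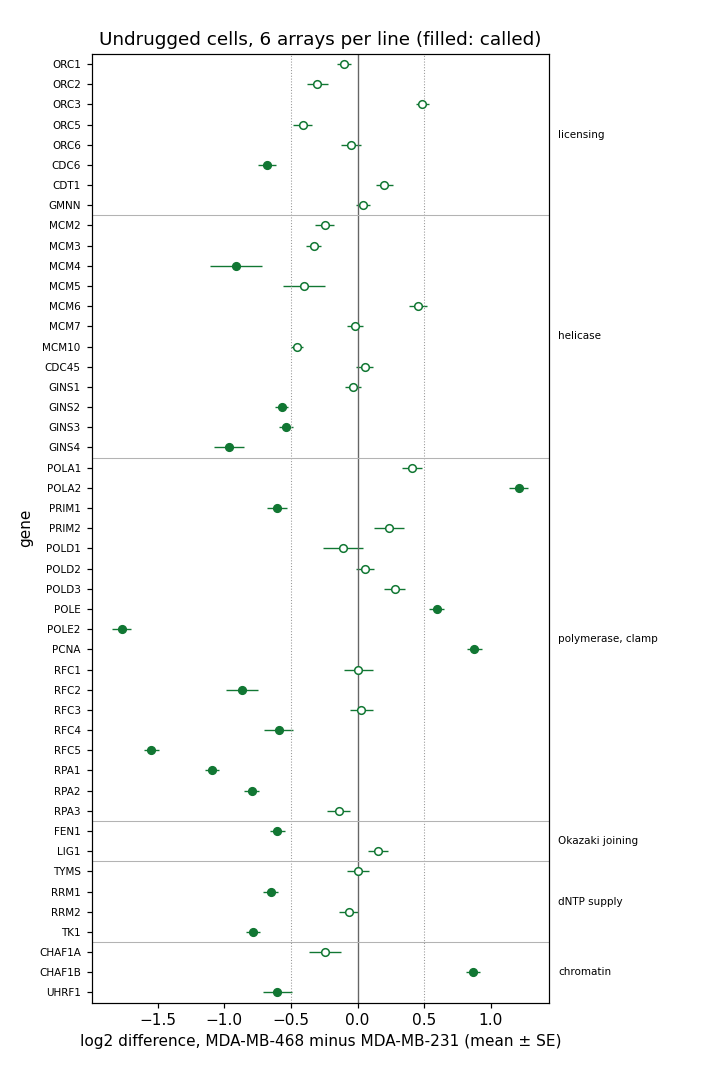
Log2 difference between undrugged MDA-MB-468 and MDA-MB-231 cells (x axis, ± standard error from limma on 6 arrays per line) for the 47 genes by step (y axis). Filled points passed both thresholds: 16 lie left of 0, to -1.77 for POLE2, and 4 right of 0, to 1.21 for POLA2.

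Related genes outside the set were measured beside it. Of 37 further replication genes 34 were measured, and in MDA-MB-468 1 of these fell against DMSO, RBBP4 (-0.67), a histone-binding subunit of CAF-1, with a list median of -0.03. At 24 h 7 were lower and 3 higher with a median of -0.11, the largest changes being RRM2B (1.06), the p53-inducible small subunit of ribonucleotide reductase, RNASEH2B (-0.98), a subunit of the nuclease that removes ribonucleotides from DNA, and RBBP4 (-0.86). Of 34 mitosis genes 4 fell against DMSO in MDA-MB-468 (AURKA, CENPF, TPX2 and PRC1), with a list median of -0.32, and 12 were lower at 24 h, with a median of -0.37. Of 25 measured genes of G1 and S control 5 fell against DMSO (CDK6, E2F2, E2F4, E2F5 and RBL2) and 1 rose, CDKN1A (2.19), the inhibitor of cyclin-dependent kinases known as p21, with a list median of -0.17. In MDA-MB-231 CDKN1A also rose against DMSO (0.94). All of these stand against medians of -0.012 over all probes against DMSO and 0.0044 at 24 h, with 2.38% of all probes lower and 2.00% higher against DMSO in MDA-MB-468 and 5.43% and 5.39% at 24 h.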

How the data were processed

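The 18 Illumina HumanHT-12 v4 arrays each carried RNA from one culture condition. The authors deposited probe intensities from GenomeStudio (version not given in the sources used here), from 55.2 to 17268 on a linear scale without normalization between arrays, and a table of normalized log2 values from 6.29 to 14.2. Intensities were background-corrected by normexp (offset 50), made equal in distribution by quantile normalization and log2-transformed, all with limma 3.58.1 (R 4.3.3). The floor was the 95th percentile of 457 olfactory receptor probes of an array, and probes above it on at least 3 arrays were tested. The intensity table has no control probes or detection p-values, so neither was used. Between 17123 and 20254 probes of an array passed the floor, and the number of arrays limits the precision. Probes were named from GEO's platform annotation, with symbols updated through RefSeq.

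For each line, OTX015 and DMSO were contrasted in a fit of 9 arrays that also held time (residual df 4), and by time in a fit of 6 means (df 3). Responses were contrasted between lines on 18 arrays (df 8) and undrugged lines on 12 (df 7). All members called against DMSO, and otherwise the 2 with the largest change in each step, were given by array. MCM4, MCM5, CDC45, POLE2 and the genes named by time or line were chosen after their values were seen. The members and lists were chosen with earlier results of these data known. The fit of OTX015 against DMSO and the contrast with undrugged arrays at 24 h were run on simulated data in each line, and the other contrasts were not. Alternatives varied the correction, normalization, filter, controls, time term, variance trend, probe summary and arrays used. The figures come from matplotlib 3.10.9.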

Additional observations from a re-analysis of the deposited data

Results flagged for a closer look

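Of 94 groups of 6 undrugged arrays (47 genes in 2 lines), 2 held an array far from the others, and chance flags about 1 group in 20. GMNN, geminin, the inhibitor of CDT1, was at 9.90 on the untreated array of 24 h in MDA-MB-231, where the nearest array was at 10.08. LIG1 was at 9.23 on the untreated array of 24 h in MDA-MB-468, where the nearest was at 8.84. The lower value of LIG1 with OTX015 at 24 h is read against a mean that includes this array.

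The response of UHRF1 differed between the lines by -0.64, as tested in one fit of both lines. By their brightest probes, 7 genes had a response at 24 h that differed from that at 4 h in MDA-MB-468: GINS4 (-0.83), CDC45 (-0.82), MCM4 (-0.70), POLE2 (-0.69), PRIM2 (0.78), RFC1 (0.90) and POLD3 (0.91). These 7 are read against the undrugged arrays of 4 h that stood apart. When the 8 h response took the place of the 4 h response none of the 7 was called, and MCM4 turned to 0.14. Why the arrays of 4 h stood apart was not tested.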

How the results depend on the processing

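Under every alternative run, leaving out arrays included, no member was called against DMSO in MDA-MB-231. In some of these fits only the minimum size of change kept a gene from a call. For MCM2 the change ran from -0.496 to -0.191 over the alternatives, with a limma adjusted p from 0.00379 to 0.631. Of the other members given by array, RRM2 (higher) and RFC4 (lower) reached a lowest adjusted p of 0.0312 and 0.0443. In MDA-MB-468 the count of 4 became 2 with the deposited log2 table, 0 with scale normalization, 10 with untreated and DMSO arrays pooled (3 higher and 7 lower), 0 with the untreated arrays left out of the fit, 0 without the time term and 2 with the mean over the probes of a gene, and it ranged from 0 to 6 with arrays left out. It was 0 without the 8 h or 24 h arrays or any one DMSO array, 1 without the OTX015 array of 8 h, and 2 without the untreated array of 4 h or of 8 h. The 1 gene that differed between the lines became 0 with scale normalization, without the untreated arrays, without the time term and with the probe mean, 3 with pooled controls, and 0 to 3 with arrays left out (0 without the arrays of any time, 3 without the MDA-MB-468 OTX015 array of 4 h and 2 without that of 24 h). At 8 h in MDA-MB-231 the count of 2 became 1 with the deposited table, 1 without background correction, and 0 to 2 with arrays left out. In MDA-MB-468, leaving out arrays gave 5 to 11 at 4 h (5 without either undrugged array of that time), 4 to 9 at 8 h, 5 to 12 at 24 h (5 in the added fit without the 4 h arrays), 0 to 14 for the change of the response from 4 to 24 h (0 against 8 h, an added alternative), and 3 to 8 for undrugged 24 against 4 h (4 with the deposited table, 0 against 8 h). The change of the response numbered 0 without the DMSO array of 4 h, 1 without the untreated one, 3 without either undrugged array of 8 h and 14 without the DMSO array of 24 h. Undrugged 24 against 4 h numbered 4 and 3 without the untreated and the DMSO array of 4 h, and at 8 h the 4 came without the untreated array of that time. The difference between undrugged lines kept a count of 18 to 21.

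With scale normalization the sign turned in MDA-MB-231 for GINS4 (0.078), RFC3 (0.031), FEN1 (0.010), LIG1 (0.056), TYMS (0.0053) and UHRF1 (0.098), and against 8 h for MCM4 in MDA-MB-468 (0.14). With arrays left out the change in MDA-MB-231 ran from -0.16 to 0.0047 for LIG1, -0.13 to 0.040 for TYMS, -0.040 to 0.022 for GINS4 and -0.047 to 0.027 for UHRF1, and in MDA-MB-468 from -0.32 to 0.24 for LIG1. Over all alternatives the adjusted p in MDA-MB-468 ran from 0.00313 to 0.194 for MCM2, 0.00593 to 0.344 for MCM10, 0.00371 to 0.237 for RFC3 and 0.000746 to 0.302 for UHRF1, and none of these 4 changed sign. The cause of these shifts was not tested. Arrays of the same hour were matched by the time term, whose omission is given above, and the labels give no other numbering of replicates. A fit with the slide as a block was not run because the slide is not given in the sources used here.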
